A study of Mus musculus with 12 samples.

Results

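Kit and Il1rl1, the genes of the stem cell factor receptor c-Kit and of the IL-33 receptor chain ST2, were followed in mast cells before and after IgE stimulation. They were chosen by name as 2 of the 734 endogenous mRNAs on the NanoString nCounter Myeloid Innate Immunity Panel, and both were among the 545 that passed the filter on low counts. The cells were mast cells grown from the bone marrow of C57BL/6 mice for at least 4 weeks with IL-3. All had been edited with Cas9 and a repair template that carries the green fluorescent reporter ZsGreen followed by a polyadenylation and stop cassette, and ZsGreen-positive cells were sorted before stimulation. The template was targeted either to Kit (c-Kit KO cells, the edited control) or to Mettl3, the methyltransferase that places the RNA modification m6A (Mettl3 KO cells). Each genotype was left unstimulated or given IgE and antigen complexes for 4 h, which made 4 groups of 3 biological replicates. Unedited cells were not analysed here, so that each group was edited at either Kit or Mettl3, and the panel has no Mettl3 probe. Sorted cells still formed bulk samples, in which fewer cells of a type and less RNA per cell cannot be told apart.

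c-Kit is a receptor tyrosine kinase of the class that includes the receptors for M-CSF and PDGF. Stem cell factor, encoded by Kitl, dimerises it and drives survival, growth and migration of mast cells through Src family kinases, PI3-kinase and the MAP kinase cascade. ST2 belongs to the IL-1 receptor family. When epithelial or stromal damage releases the alarmin IL-33, ST2 binds it, recruits the co-receptor encoded by Il1rap, and signals through the adaptors MyD88 and TRAF6 to NF-kB, so that mast cells make cytokines without IgE. The Il1rl1 gene also gives a shorter mRNA for a soluble decoy form of ST2. Mast cells carry both receptors beside the high-affinity IgE receptor FcεRI.

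Kit was itself the gene edited in the control cells, so the place of the probe against the cut sites decides what its counts mean. The guides listed for Kit are shown as genomic sequence, 5′ to 3′, with the protospacer in lower case and the adjacent PAM in capitals:

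crRNA_Kit_1: agtcgggatcaatgcacgtcAGG

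crRNA_Kit_2: aaagccgaggccactcgcacGGG

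In the GRCm39 assembly the first protospacer lies on the minus strand at chr5:75767786-75767805 and the second on the plus strand at chr5:75767877-75767896. Both are in the coding part of exon 2 of the 21 exons of the canonical transcript Kit-204. The predicted cuts fall just before transcript base 307 and just after base 411. The Kit gene runs on the plus strand from 75735576 to 75817404 of chromosome 5. The Kit probe starts at base 4275 of its reference mRNA, and counted along Kit-204 this base falls in exon 21, in the 3′ UTR, far downstream of the guides. The Il1rl1 gene runs on the plus strand from 40468730 to 40504575 of chromosome 1. Its probe starts at base 815, which counted along the GENCODE transcripts lies in a coding exon that 4 of the 5 annotated transcripts hold, long and short ones among them. These places are approximate, because the base numbers refer to RefSeq mRNAs whose letters were not compared with the GENCODE transcripts. The Kit counts therefore do not test whether c-Kit was lost in the c-Kit KO cells, and the Il1rl1 counts do not separate membrane-bound from soluble ST2. The polyadenylation and stop cassette was targeted upstream of the Kit probe. Whether the Kit mRNA counted in c-Kit KO cells came from alleles with or without the insert was not tested.

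Kit mRNA was counted in every library. In unstimulated c-Kit KO cells the raw counts were 1355, 2489 and 3150 in replicates 1, 2 and 3, and after stimulation they were 1094, 1599 and 1008. In unstimulated Mettl3 KO cells they were 3999, 1811 and 2831, and after stimulation 2048, 1439 and 1872. The lowest of these counts was still 32.5 times the highest negative control probe of its library. Exact 95% Poisson intervals had a half-width of at most 6.22% of the count, so that the spread between replicates was much wider than the counting error. Poisson intervals cover counting error only.

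Scaled to the 20 housekeeping probes, which sets all libraries to the same reference mRNA level, Kit was lower after stimulation in both genotypes. The scaled counts were 1856, 2856 and 2826 in unstimulated c-Kit KO cells and 1159, 1613 and 738 in stimulated ones. The means were 2513 ± 569 (SD, n = 3) and 1170 ± 437 (SD, n = 3), and the groups did not overlap. For Mettl3 KO cells the scaled counts were 4057, 2533 and 2456 without stimulation and 1845, 1771 and 1550 with it. The means were 3016 ± 903 (SD, n = 3) and 1722 ± 154 (SD, n = 3), again without overlap. Non-overlapping groups with the stimulated cells lower were found for 15.4% of all tested probes in c-Kit KO cells and for 17.6% in Mettl3 KO cells. The plot of scaled counts per library shows that the line of each same-numbered pair went down.

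**Figure D1:**
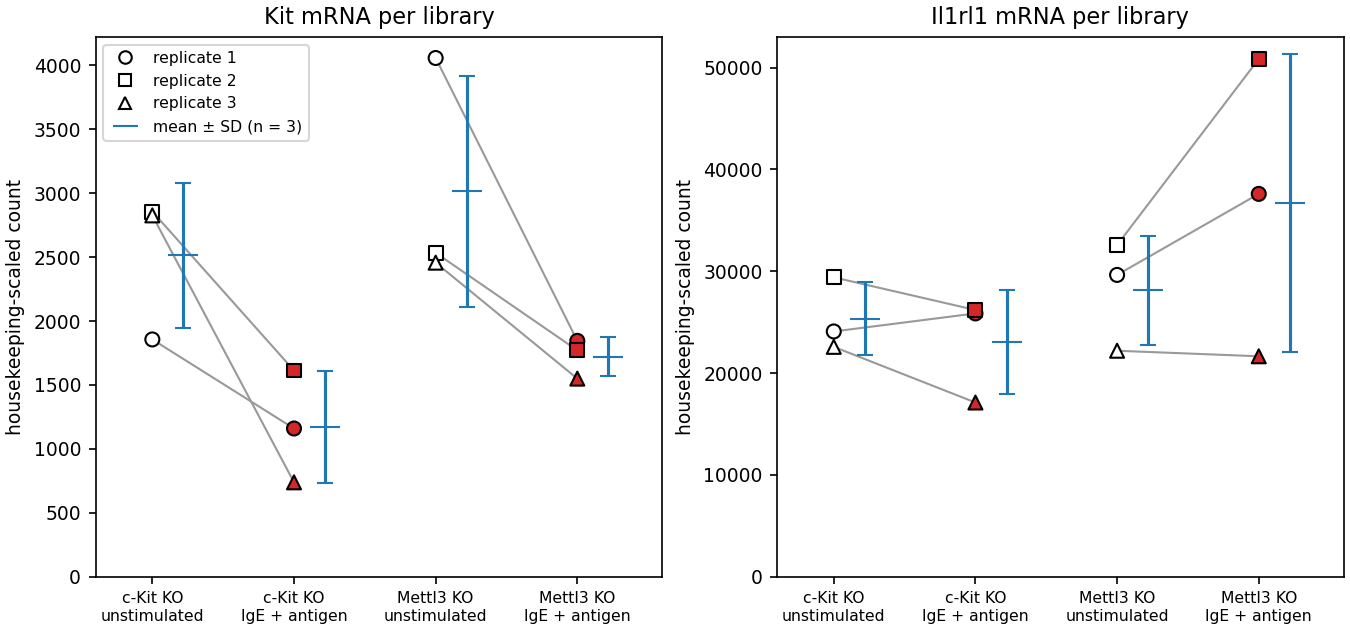
Housekeeping-scaled counts of Kit (left) and Il1rl1 (right) in each of the 12 libraries, with the group on the x axis, symbols for the replicate number, grey lines between same-numbered libraries, and mean ± SD (n = 3) in blue. All 6 Kit lines fall, with stimulated libraries between 738 and 1845 and unstimulated ones between 1856 and 4057, while the Il1rl1 groups overlap.

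In same-numbered pairs of c-Kit KO cells, Kit changed by -0.68, -0.82 and -1.94 on the log2 scale, and in pairs of Mettl3 KO cells by -1.14, -0.52 and -0.66. Across all tested probes, edgeR's quasi-likelihood test gave a log2 fold change of -1.10 (SE 0.32, 95% interval -1.80 to -0.40, Benjamini-Hochberg adjusted p = 0.0334) in c-Kit KO cells. Kit was thus 1 of the 37 probes called lower there, 6.79% of the 545, among 103 called in either direction, or 18.9%. For Mettl3 KO cells the log2 fold change was -0.81 (SE 0.32, 95% interval -1.51 to -0.11), with an adjusted p of 0.0727 in the same edgeR test, which missed the threshold of 0.05. There 58 probes, 10.6%, were called lower, of 178 called in all, or 32.7%. Under the laxer thresholds that the study's methods set, which ask for a 1.5-fold change and do not adjust for the number of probes, Kit was lower in both genotypes, as were 14.9% of the probes in c-Kit KO cells and 15.8% in Mettl3 KO cells.

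A single test over both genotypes, with the stimulation labels permuted within each genotype, gave a mean log2 difference of -0.96, a 1.94-fold lower level, with an exact two-sided permutation p of 0.005. This is the smallest p that the 400 arrangements allow. With labels exchanged only within same-numbered pairs the exact permutation p was 0.03125, the smallest that 64 arrangements allow. Without the pairing but with positive control scaling, it was 0.02. The call in c-Kit KO cells alone was less secure. Its edgeR adjusted p rose to between 0.0674 and 0.123 when unstimulated replicate 2 or 3, or stimulated replicate 1 or 3, was left out, and it was 0.187 with scaling by the positive control probes. Against each of the 20 housekeeping probes alone, Kit was lower after stimulation with 20 of 20 in c-Kit KO cells and with 18 of 20 in Mettl3 KO cells.

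Il1rl1 did not follow Kit. In unstimulated c-Kit KO cells its scaled counts were 24089, 29406 and 22576, and in stimulated ones 25858, 26195 and 17111. The means were 25357 ± 3587 (SD, n = 3) and 23055 ± 5150 (SD, n = 3). For Mettl3 KO cells the scaled counts were 29640, 32578 and 22195 without stimulation and 37596, 50847 and 21650 with it. The means were 28138 ± 5352 (SD, n = 3) and 36698 ± 14619 (SD, n = 3). Groups overlapped in both genotypes, and the stimulated Mettl3 KO libraries spread most, with replicate 2 the highest and replicate 3 the lowest. Counting error was small here, with raw counts of 17587 to 41734 and Poisson intervals with a half-width of at most 1.48% of the count.

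Same-numbered pairs gave log2 differences for Il1rl1 of 0.10, -0.17 and -0.40 in c-Kit KO cells, and of 0.34, 0.64 and -0.04 in Mettl3 KO cells. The edgeR log2 fold change was -0.14 (SE 0.33, 95% interval -0.86 to 0.59, adjusted p = 0.814) in c-Kit KO cells. It was 0.38 (SE 0.33, 95% interval -0.34 to 1.11, adjusted p = 0.423) in Mettl3 KO cells. Over both genotypes the mean log2 difference was 0.08, with an exact two-sided permutation p of 0.72. The sign in c-Kit KO cells turned with the scaling, to 0.12 with the positive control probes and 0.11 with total endogenous counts, so no direction could be given there. These intervals do not show that Il1rl1 was constant, since changes of up to about 0.86 downwards in c-Kit KO cells and 1.11 upwards in Mettl3 KO cells on the log2 scale lay within them.

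**Figure D2:**
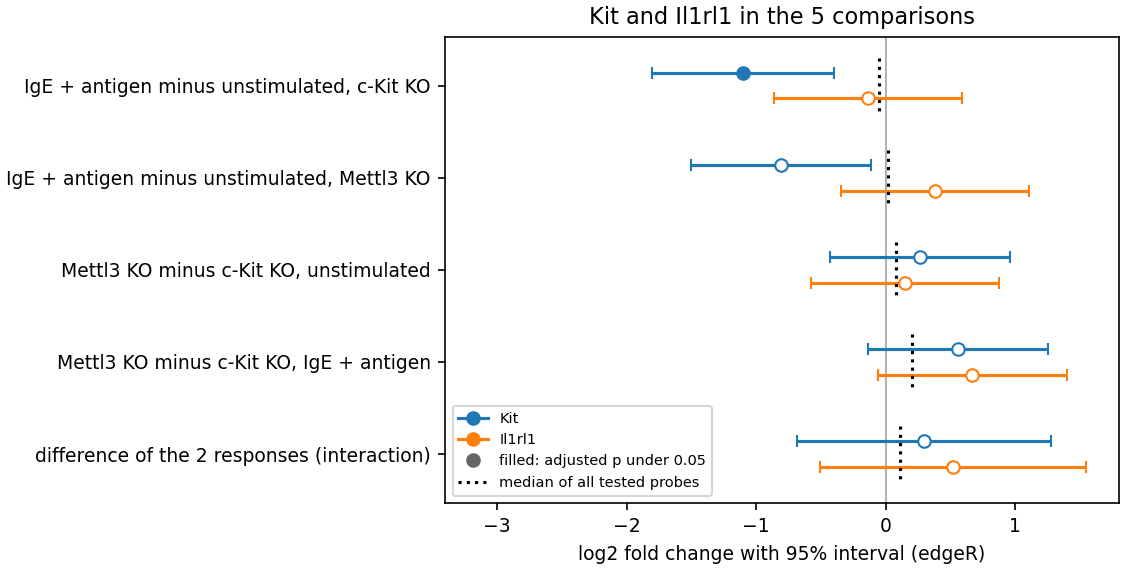
Log2 fold changes of Kit (blue) and Il1rl1 (orange) from edgeR with 95% intervals in the 5 comparisons on the y axis, with filled points where the adjusted p was under 0.05 and dotted lines at the median of the 545 tested probes. Kit in c-Kit KO cells, at -1.10, is the filled point, and the intervals of Il1rl1 include 0 in all 5 comparisons.

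The ratio of both receptors within a library needs no scaling between libraries. Il1rl1 had 13.0, 10.3 and 7.99 counts for each Kit count in unstimulated c-Kit KO cells, and 22.3, 16.2 and 23.2 in stimulated ones. In Mettl3 KO cells there were 7.31, 12.9 and 9.04 without stimulation and 20.4, 28.7 and 13.97 with it. The values compare probes and not molecules, so that the change of the ratio and not its size has a meaning. In same-numbered pairs the ratio rose 1.72-, 1.58- and 2.90-fold in c-Kit KO cells and 2.79-, 2.23- and 1.55-fold in Mettl3 KO cells. It was thus higher after stimulation in 6 of 6 pairs, given here as a description without a test. Ratios of other probes were not computed.

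**Figure D3:**
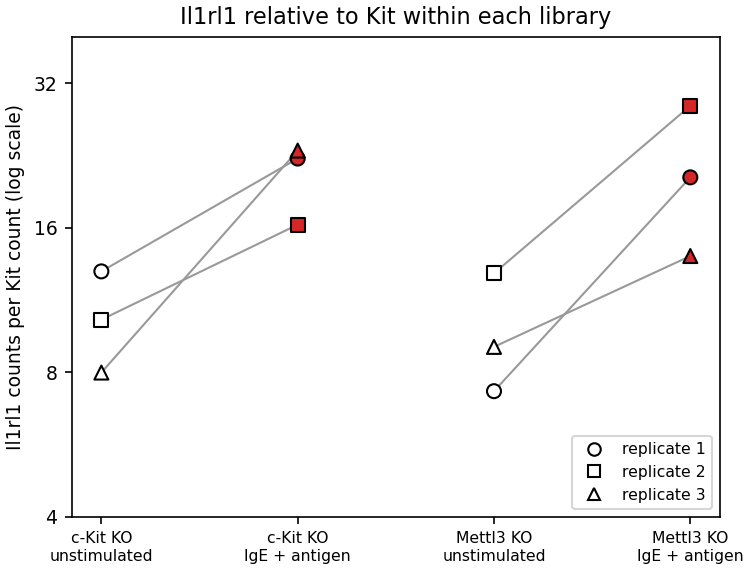
Il1rl1 counts per Kit count in each library (y axis, log scale) by group, with symbols for the replicate number and grey lines between same-numbered libraries. The 6 unstimulated libraries lie between 7.31 and 13.0 and the 6 stimulated ones between 13.97 and 28.7.

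The design also asks whether loss of Mettl3 changes either receptor, for which c-Kit KO cells were the control. In unstimulated cells Kit was 0.26 higher on the log2 scale in Mettl3 KO cells (SE 0.32, 95% interval -0.43 to 0.96, adjusted p = 0.997, edgeR), and the groups overlapped. This difference rested on replicate 1, without which it was -0.19. In stimulated cells the Kit difference was 0.56 (SE 0.32, 95% interval -0.14 to 1.25, adjusted p = 0.469). The Kit locus was cut in one arm of these comparisons and not in the other, so an effect of the insert on Kit mRNA and an effect of Mettl3 cannot be told apart.

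For Il1rl1 the log2 difference between Mettl3 KO and c-Kit KO cells was 0.15 (SE 0.33, 95% interval -0.58 to 0.88, adjusted p = 0.997, edgeR) without stimulation. With stimulation it was 0.67 (SE 0.33, 95% interval -0.06 to 1.40, adjusted p = 0.393), against a median of 0.20 over all tested probes. All 3 same-numbered pairs were higher in stimulated Mettl3 KO cells, by 0.54, 0.96 and 0.34, although the groups overlapped. Kit was also higher in 3 of 3 of these pairs, and the share of all tested probes that were so was not computed. Of all 545 probes, 0 were called between the genotypes without stimulation and 5 with it, all higher in Mettl3 KO cells, which is 0.917%. At the unadjusted thresholds given above 7 probes, 1.28%, passed without stimulation, where DESeq2 also called 0, and 77, 14.1%, passed with it, neither receptor among them. The supplement to the study gives the third stimulated Mettl3 KO library another replicate number than its label, and the label was used here. Deviations from the group means correlated between this library and those labelled 3 in the other groups (r = 0.38, 0.29 and 0.48). With libraries labelled 1 or 2 in the other groups r ran from -0.40 to -0.045. In a fit blocked on replicate number that left this library out, a setting chosen after seeing the data, the Il1rl1 difference was 0.80 with an edgeR adjusted p of 0.0494. Without the block it was 0.94 with an adjusted p of 0.116 when the same library was left out.

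The response to stimulation differed between the genotypes by 0.29 for Kit (SE 0.45, 95% interval -0.69 to 1.27) and by 0.52 for Il1rl1 (SE 0.47, 95% interval -0.51 to 1.55) on the log2 scale. Both had an adjusted p of 0.993 in edgeR's test of the interaction, in which 0 of 545 probes were called. At the unadjusted thresholds 23 probes, 4.22%, passed, and DESeq2 called 2. That Kit passed the adjusted threshold in c-Kit KO cells and not in Mettl3 KO cells is therefore no evidence of a difference between them.

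Ordered by mean scaled count, Kit was lowest in stimulated c-Kit KO cells, followed by stimulated Mettl3 KO, unstimulated c-Kit KO and unstimulated Mettl3 KO cells. The stimulated groups overlapped each other, and so did the unstimulated groups. All 6 stimulated libraries lay below all 6 unstimulated ones, but the gap between the nearest, 1845 and 1856, was smaller than their counting error. The share of all tested probes separated so over both genotypes was not computed. Within c-Kit KO cells 15.4% of them, and within Mettl3 KO cells 17.6%, were lower without overlap. For Il1rl1 the order ran from stimulated c-Kit KO through unstimulated c-Kit KO and unstimulated Mettl3 KO to stimulated Mettl3 KO cells, and each group overlapped its neighbour.

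The ligand mRNAs had low counts. Kitl, the c-Kit ligand, had 34 to 113 raw counts and was above the highest negative control in 12 of 12 libraries. It fell on stimulation in Mettl3 KO cells, from a mean scaled count of 96.7 ± 15.9 to 46.6 ± 19.1 (SD, n = 3), a log2 fold change of -1.06 (SE 0.33, adjusted p = 0.0272, edgeR). This call was lost with the 16 brighter housekeeping probes (edgeR adjusted p = 0.0603), positive control scaling (0.109) and only the groups compared (0.0659). In c-Kit KO cells it went from 96.7 ± 17.6 to 63.6 ± 10.6 (SD, n = 3), with a log2 fold change of -0.60 (SE 0.32, adjusted p = 0.220). Il33 had 9 to 41 raw counts, exceeded the highest negative control in 2 of 12 libraries and was not tested.

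The partners of ST2 did not pass the test in either genotype. Il1rap, the co-receptor, had scaled counts of 74.4 ± 21.2 in stimulated and 105 ± 55.1 in unstimulated c-Kit KO cells (SD, n = 3), with a log2 fold change of -0.49 (adjusted p = 0.569, edgeR). In Mettl3 KO cells it was 78.1 ± 36.0 without and 170 ± 90.3 with stimulation (SD, n = 3), with a log2 fold change of 1.13 (SE 0.54, adjusted p = 0.133). It rose there in 3 of 3 pairs, a count that was not made over all tested probes. Blocked on replicate number, the log2 fold change of Il1rap there was 1.10 and the edgeR adjusted p 0.0207. Myd88, the adaptor of the receptor complex, gave log2 fold changes of -0.24 in c-Kit KO and -0.23 in Mettl3 KO cells (adjusted p = 0.558 and 0.529, edgeR). Traf6, the ubiquitin ligase downstream of it, gave 0.11 and 0.78 (adjusted p = 0.868 and 0.0946, edgeR), and 0.75 with an adjusted p of 0.0393 in Mettl3 KO cells with the block.

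Of the 24 panel genes listed for the IL-33 receptor and MyD88 pathway, 19 were tested. In c-Kit KO cells 3 rose, 0 fell and 16 did not pass, with a median log2 fold change of 0.42 against -0.05 over all tested probes. In Mettl3 KO cells 8 rose, 0 fell and 11 did not pass, with a median of 0.88 against 0.02. Probes called higher made up 12.1% of all those tested in c-Kit KO cells and 22% in Mettl3 KO cells. The genes that rose in both were Il1a and Il1b, which encode the related cytokines IL-1α and IL-1β, and Peli1, a ubiquitin ligase of this pathway. Il1b went from scaled counts of 44.0 to 762 in c-Kit KO cells (adjusted p = 0.000597, edgeR) and from 35.1 to 680 in Mettl3 KO cells (adjusted p = 0.000285, edgeR). Its unstimulated raw counts were near background. They were 1.93 to 2.2 times the highest negative control in c-Kit KO cells and 0.967 to 1.79 times in Mettl3 KO cells. Il1a was at background without stimulation, with means of 8.70 and 11.6, and at 528 and 741 with it. Peli1 rose by 1.19 (SE 0.32) in c-Kit KO cells and 1.85 (SE 0.32) in Mettl3 KO cells on the log2 scale. Nfkbia, the NF-kB inhibitor that NF-kB induces, rose by 2.25 (SE 0.53, adjusted p = 0.00725, edgeR) in Mettl3 KO cells and gave 0.87 (SE 0.52, adjusted p = 0.285) in c-Kit KO cells. Without stimulation Nfkbia was low too, with mean scaled counts of 35.7 in Mettl3 KO and 34.1 in c-Kit KO cells. The stimulus in these cultures was IgE and antigen, and no IL-33 is named for these samples.

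All 18 listed genes of the Kit ligand and its signalling were tested. In c-Kit KO cells 2 rose, 1 fell and 15 did not pass, with a median log2 fold change of -0.10. The same list gave 5 that rose, 2 that fell and 11 that did not pass in Mettl3 KO cells, with a median of 0.03. Together 3 of 18 and 7 of 18 were called, against 18.9% and 32.7% of all tested probes, so that the list lay near the share of the whole panel. Fyn, a Src family kinase, rose from scaled counts of 67.8 ± 29.8 to 407 ± 110 (SD, n = 3) in c-Kit KO cells and from 80.7 ± 7.69 to 879 ± 320 (SD, n = 3) in Mettl3 KO cells. Spry2, a feedback inhibitor of receptor tyrosine kinases, rose from 48.5 ± 6.71 to 210 ± 28.1 and from 52.4 ± 10.2 to 238 ± 42.5 (SD, n = 3). Pik3cg, the gamma catalytic subunit of PI3-kinase, fell by 1.06 on the log2 scale in c-Kit KO cells and by 1.33 in Mettl3 KO cells (adjusted p = 0.0104 and 0.00136, edgeR). It missed the threshold in c-Kit KO cells with total count scaling (0.121) and in both with positive control scaling (0.272 and 0.0560). Whether c-Kit acts through this subunit was not tested. Map2k1, the kinase MEK1, rose by 0.92 (SE 0.26, adjusted p = 0.0196, edgeR) in Mettl3 KO cells and gave 0.44 (adjusted p = 0.272) in c-Kit KO cells. The former call of Map2k1 was lost with TMM (edgeR adjusted p = 0.0613), positive control scaling (0.155) and total counts (0.0552). Of the other receptors of the class of c-Kit, Flt3 and Pdgfra were above the highest negative control in 0 of 12 libraries, and Csf1r and Pdgfrb in 1 each.

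**Figure D4:**
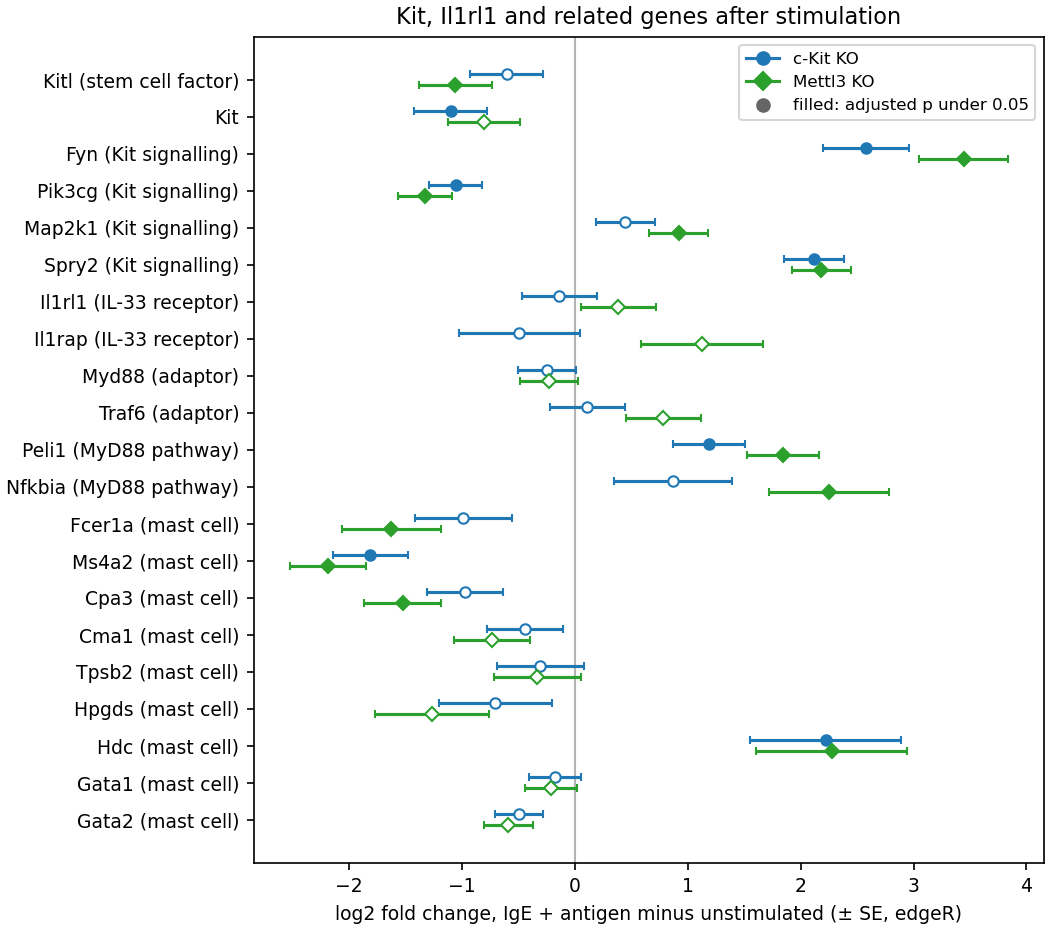
Log2 fold changes on stimulation from edgeR (x axis, ± SE) of Kit, Il1rl1 and named genes of their pathways and of mast cells, with circles for c-Kit KO and diamonds for Mettl3 KO cells, filled where the adjusted p was under 0.05. Kit lies at -1.10 and -0.81 beside Ms4a2 at -1.82 and -2.19, while Il1rl1 lies at -0.14 and 0.38.

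The mast cell label was checked against 9 identity genes, all of which were tested. Ms4a2, the beta chain of FcεRI, fell from a scaled count of 8292 ± 1388 to 2356 ± 997 in c-Kit KO cells and from 9343 ± 2080 to 2046 ± 360 in Mettl3 KO cells (SD, n = 3), log2 fold changes of -1.82 (SE 0.33, adjusted p = 0.00302, edgeR) and -2.19 (SE 0.34, adjusted p = 0.000636). Fcer1a, the alpha chain that binds IgE, gave -0.99 (adjusted p = 0.125, edgeR) in c-Kit KO cells and fell by 1.63 (adjusted p = 0.0143) in Mettl3 KO cells. Cpa3, the mast cell carboxypeptidase, gave -0.98 (adjusted p = 0.0670, edgeR) and fell by 1.52 in Mettl3 KO cells (adjusted p = 0.00554). With the replicate block, the edgeR adjusted p in c-Kit KO cells was 0.00531 for Fcer1a and 0.0107 for Cpa3. Hdc, the enzyme that makes histamine, rose by 2.22 and 2.27 (adjusted p = 0.0369 and 0.0223, edgeR), with 0.0551 and 0.0519 after TMM scaling and 0.0535 in c-Kit KO cells after subtraction of the negative controls.

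The proteases Cma1 and Tpsb2 gave log2 fold changes of -0.44 and -0.31 in c-Kit KO cells and of -0.74 and -0.33 in Mettl3 KO cells, none of which passed the edgeR test. The same held for Hpgds, the prostaglandin D2 synthase, at -0.71 and -1.27, and for the transcription factors Gata1, at -0.18 and -0.21, and Gata2, at -0.50 and -0.59. With the replicate block, edgeR's adjusted p in Mettl3 KO cells was 0.0119 for Cma1, 0.00760 for Hpgds and 0.0383 for Gata2. In all, 1 identity gene rose and 1 fell in c-Kit KO cells, and 1 rose and 3 fell in Mettl3 KO cells, with medians of -0.50 and -0.74. Over all tested probes, 12.1% rose and 6.79% fell in c-Kit KO cells, and 22% rose and 10.6% fell in Mettl3 KO cells. Summed over the list, the scaled counts ran from 329929 to 468959 in unstimulated and from 126431 to 277216 in stimulated cells. Most of this sum came from Cpa3, Cma1 and Fcer1a, with means of 209858, 76883 and 76073 in unstimulated c-Kit KO cells against a median sum of 412165. The sum thus follows these abundant mRNAs more than the list as a whole, in which Hdc rose. The sum was lower after stimulation in both genotypes, as Kit was. Between genotypes it did not follow Kit, whose mean was higher in Mettl3 KO cells with and without stimulation. Median sums were lower there, at 374817 against 412165 in unstimulated and 153373 against 217259 in stimulated cells, though the groups overlapped. The part of the sum in the result for Kit was not tested.

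Markers of other cell types were mostly low, with exceptions. The most counted endothelial gene, Tek, had scaled counts of 35.7 to 216 and was above the highest negative control in 12 of 12 libraries, and the neutrophil gene Fcnb, at 22.7 to 61.9, was so in 11. The eosinophil gene Siglecf reached 10.96 to 132 and was above it in 6 libraries, the macrophage gene Adgre1 in 5, the lymphocyte gene Cd27 and the dendritic cell gene Itgax in 2 each, and the fibroblast gene Pdgfrb in 1. Some genes of every list never were, namely 4 of 10 macrophage, 5 of 8 neutrophil, 1 of 5 eosinophil, 2 of 6 lymphocyte, 3 of 5 dendritic cell, 2 of 5 fibroblast and 1 of 3 endothelial genes. On stimulation Siglecf, the 1 tested gene of its list, rose by 1.58 in c-Kit KO and 2.18 in Mettl3 KO cells on the log2 scale (adjusted p = 0.0380 and 0.00486, edgeR). Tek moved the other way, as Kit did, with a log2 fold change of -0.93 (SE 0.39, adjusted p = 0.121, edgeR) in c-Kit KO cells and a fall of 1.71 (SE 0.40, adjusted p = 0.00677) in Mettl3 KO cells. The summed scaled counts of the endothelial list, 1 of whose 2 tested genes was thus called lower in Mettl3 KO cells, ran from 104 to 256 in unstimulated and from 69.6 to 108 in stimulated cells. No other tested marker of these lists was called in either genotype, and the part of Tek and Siglecf in the result for Kit was not tested.

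The patterns most like each receptor over the 12 libraries were found by Pearson's r of log2(scaled count + 1), as a description. For Kit these were Birc2 (r = 0.87), Sptbn1 (0.87), Sesn1 (0.86), Mob3c (0.86) and Cxcl5 (0.85). After removing the group means, the r of these genes with Kit was 0.81, 0.52, 0.69, 0.54 and 0.56. For Il1rl1 they were Nectin1 (0.94), Sphk1 (0.90), Adamts1 (0.89), Nfkb1 (0.87) and Stat6 (0.84), with an r of 0.94, 0.89, 0.88, 0.84 and 0.79 after removing the group means. The likeness to Il1rl1 was therefore almost as high within groups as over all libraries. Kit and Il1rl1 had an r of 0.34 with each other, which placed Il1rl1 at rank 216 by likeness to Kit. All points share the library and its housekeeping factor, and genes are not independent replicates.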

How the data were processed

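The nCounter assay hybridises total RNA, here 40 ng a sample, to barcoded probes and counts single barcodes. The authors deposited raw counts for 12 samples, unscaled and without alignment. Endogenous counts came to between 504238 and 737910 a library, and the 8 negative controls averaged 7.13 to 22.8. For the present values each library was scaled to the geometric mean over 20 housekeeping probes (factors 0.715 to 1.36), which were read as the block after the alphabetical endogenous list, since the table has no class column. Probes reaching 20 counts in 3 or more libraries were tested with edgeR 4.0.16 under R 4.3.3 (glmQLFit at its defaults, glmQLFTest) in 1 model of all groups. Benjamini-Hochberg adjustment was made within each comparison, and calls were made at 0.05. Scripts were tested on simulated counts.

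Named genes were Kit, Il1rl1, their ligands, co-receptor and adaptors, the mast cell identity genes, up to 4 called genes of smallest p per list and stimulation comparison, the 5 genes most like each receptor and the most counted gene of each marker list. The members and lists were chosen with earlier results of these data known. Same-numbered libraries deviated together from their group means (r from 0.14 to 0.52 in 18 pairs, against -0.46 to 0.12 in 36 others), so the numbers were taken to pair the samples. Deviations cancel within each group, so the negative mean of the others, -0.17, follows from this and is no separate evidence. The study's methods name no block. Alternatives were TMM, DESeq2 1.42.0, the 16 housekeeping probes averaging 100 counts or more, each housekeeping probe alone, positive control and total count scaling, no filter, a filter at a mean of 50, subtraction of negative controls, limma 3.58.1 on log2(scaled count + 1), only the groups compared, the replicate block and leaving out libraries. Gene models came from GENCODE vM39 on GRCm39.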

Additional observations from a re-analysis of the deposited data

How the results depend on the processing

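All values here are log2 fold changes unless called counts of probes, and adjusted p-values are from edgeR with Benjamini-Hochberg adjustment. The fall of Kit in c-Kit KO cells kept its direction under every alternative, but missed the threshold with the 16 brighter housekeeping probes (-0.998, adjusted p = 0.0585), positive control scaling (-0.89, 0.187), total counts (-0.90, 0.0863) and only the groups compared (-1.10, 0.0705). Leaving out libraries gave -1.41 to -0.77, with the call kept without unstimulated replicate 1 (adjusted p = 0.0444) or stimulated replicate 2 (0.0196) of the c-Kit KO cells, and lost without any other of their libraries or any whole replicate number. Kit in Mettl3 KO cells passed with TMM (-0.97, 0.0223) and DESeq2 (-0.92, 0.00247, DESeq2's adjusted p), and with a robust quasi-likelihood fit and the replicate block together (-0.81, 0.0433), a setting chosen after seeing the data. The block alone gave 0.0523. The permutation test over both genotypes gave -1.10 to -0.79 for Kit without 1 replicate number, where p = 0.0556 is the smallest that 36 arrangements allow in an exact test.

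Il1rl1 changed sign in c-Kit KO cells with positive controls (0.12) and total counts (0.11) and without stimulated replicate 3 (range -0.26 to 0.038), over both genotypes with TMM (-0.0098), and between unstimulated genotypes with positive controls (-0.012). The unstimulated Kit difference between genotypes changed sign without replicate 1 or its Mettl3 KO library (range -0.19 to 0.48), and the Kit interaction without replicate 3 (range -0.10 to 0.69). Il1rl1 between stimulated genotypes passed in 1 setting, the block without the third stimulated Mettl3 KO library (0.80), with a range of 0.36 to 0.94 when libraries were left out. With single housekeeping probes as the scale, stimulation gave -1.88 to -0.56 for Kit and -0.89 to 0.44 for Il1rl1 in c-Kit KO cells, and -2.24 to 0.038 and -1.15 to 1.13 in Mettl3 KO cells. The genotype differences reached down to -0.21 for Kit and -0.32 for Il1rl1 without stimulation, up to 1.32 for Kit with it, and 0.22 to 1.30 for Il1rl1 with it, while the interactions ran from -0.36 to 1.16 and from -0.26 to 1.26. The causes were not tested.

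In c-Kit KO cells Myd88 changed sign with total counts (0.039), Gata1 with positive controls (0.094) and total counts (0.059) and without replicate 3 (range -0.40 to 0.015), and Traf6 without replicate 2 (-0.10 to 0.28). Tpsb2 did so in Mettl3 KO cells without replicate 1 (-0.70 to 0.11). Calls kept without any 1 replicate number were those of Il1a, Il1b, Fyn and Spry2 in both genotypes and of Ms4a2 and Peli1 in Mettl3 KO cells. The replicate block raised the count of probes called in c-Kit KO cells to 156, or 157 with the robust fit. On all libraries the block alone changed no call of Kit or Il1rl1. Among the other named genes checked, it changed none but those given with their blocked values above. With the robust fit added, Hpgds in c-Kit KO cells also passed (-0.87, 0.0494), as did Kit in Mettl3 KO cells. Tek, Siglecf and the genes most like each receptor were not part of this check. Without 1 replicate number 32 to 49 probes were called in c-Kit KO and 71 to 144 in Mettl3 KO cells, with fewer libraries in the fit. Between stimulated genotypes 23 probes were called by DESeq2, 2 with the block and robust fit, and 0 to 33 without 1 replicate number, and DESeq2 called 2 interactions. With 3 libraries a group, changes inside the intervals given for Il1rl1 could not be told from none.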

Other observations

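Of 19 listed receptors for growth factors and cytokines other than c-Kit and ST2, 13 were tested. In c-Kit KO cells 1 rose, 2 fell and 10 did not pass, and in Mettl3 KO cells 2 rose, 3 fell and 8 did not pass (edgeR, adjusted p under 0.05), with median log2 fold changes of 0.16 and 0.38. The 3 and 5 of 13 called lay near the 18.9% and 32.7% called among all tested probes. Il4ra, the IL-4 receptor alpha chain, fell from a scaled count of 2256 ± 247 to 1126 ± 118 in c-Kit KO cells and from 2353 ± 573 to 919 ± 195 in Mettl3 KO cells (SD, n = 3). The adjusted p was 0.0181 and 0.00178 (edgeR), and in c-Kit KO cells it was 0.257 with positive control and 0.124 with total count scaling. Ifnar2, a chain of the type I interferon receptor, fell by 0.89 and 0.95 on the log2 scale (adjusted p = 0.0317 and 0.0142, edgeR), with calls lost in c-Kit KO cells under the 16 brighter housekeeping probes (0.0558), positive controls (0.446), total counts (0.144) and only the groups compared (0.0516), and in Mettl3 KO cells under positive controls (0.175). Il3ra, the receptor chain for the IL-3 in which the cells were grown, fell by 0.97 in Mettl3 KO cells (adjusted p = 0.0397, edgeR) and gave -0.56 in c-Kit KO cells (adjusted p = 0.258). The call of Il3ra was lost with the 16 brighter housekeeping probes (edgeR adjusted p = 0.0739), positive controls (0.180), total counts (0.0862), no filter (0.0516) and only the groups compared (0.0814). Il21r, the IL-21 receptor, rose from 20.8 to 76.9 in c-Kit KO cells and from 21.3 to 75.4 in Mettl3 KO cells (adjusted p = 0.0392 and 0.0288, edgeR), with unstimulated levels near background.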
